A study of Mus musculus with 10 samples.

Results

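The kappa variable gene repertoire is the set of Igkv genes whose RNA was measured in germinal center B cells. Its members were the genes with a symbol that starts with Igkv, which gave 101 of the 22380 genes in the files. RNA-seq was done on 10 mice with 1 library each, of which 2 were WT, 2 HET and 6 KO for Zbtb38. WT mice were Zbtb38fl/fl without Cre, HET mice were Zbtb38fl/+ x Vav-Cre and KO mice were Zbtb38fl/fl x Vav-Cre, so that WT and KO carried the floxed alleles in both copies and HET and KO carried the Cre. The strain is given as C57Bl6/N, and the floxed line came from 1 founder made in C57Bl6/J zygotes and was backcrossed to C57Bl6/N. Vav-Cre is active mainly in hematopoietic cells. B cells that bound the hapten NP and were GL7+IgD- were sorted 2 weeks after NP-OVA in alhydrogel was given to every group. The labels call the cells untreated, and ages are not given in the sources used here.

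The kappa light chain of an antibody is built when a B cell precursor joins an Igkv gene to an Igkj segment upstream of the constant gene Igkc. Each B cell then transcribes mainly the variable gene that it joined, so the mix of Igkv RNA in a sorted population reflects which B cell clones it holds and how much RNA each one makes. In mice of this background the response to NP is known for its use of lambda light chains, so kappa and lambda are given side by side. In bulk RNA, fewer cells with a given gene and less RNA per cell cannot be told apart.

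Levels are given in TPM, a measure that divides by transcript length and by the library's total and so allows genes to be compared within a library. A share is the TPM of a gene as a percentage of the TPM of all Igkv genes in that library. Total estimated counts ranged from 26612431 in KO replicate 2 to 41059082 in WT replicate 1. Igkv genes took from 37319 counts in HET replicate 2 to 149251 counts in KO replicate 6. That was 0.131% and 0.440% of the counts of these libraries.

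Zbtb38, the deleted gene, was at 63.5 and 63.3 TPM in WT, at 49.6 TPM in both HET libraries, and from 17.5 to 46.1 TPM in KO with a median of 23.6. KO replicate 2 held the highest KO value and lay close to HET on this scale. In CPM, counts scaled to the library total after TMM scaling between libraries, Zbtb38 was at 162 and 152 in WT, 117 and 106 in HET, and 18.6 to 50.3 in KO with a median of 30.3, and the groups did not overlap. A transcript of 929 bases held 35.6 of the 46.1 TPM in KO replicate 2, while the transcript of 7406 bases was at 4.34 TPM there, 15.5 and 12.2 TPM in HET, and 20.7 and 18.02 TPM in WT. By counts every library followed its label. With edgeR's quasi-likelihood test, Zbtb38 was higher in WT than in KO by a log2 fold change of 2.31 ± 0.27 (SE, adjusted p = 0.0734). The fold change was 2.08 ± 0.23 (SE, adjusted p = 0.0104) for WT and HET together and 1.82 ± 0.26 (SE, adjusted p = 0.128) for HET alone, each over KO.

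The germinal center identity was checked with 8 markers, which all had more than 3 counts in every library. They summed to 2802 and 2937 TPM in WT, 3390 and 3376 TPM in HET, and 2061 to 3658 TPM in KO. KO replicate 6 had the lowest sum and the lowest level of 7 of the 8 markers, and HET was above WT. Bcl6, the germinal center transcription factor, was at 96.3 and 104.5 TPM in WT, 113 and 122 TPM in HET, and 59.3 to 119 TPM in KO. The KO range overlapped those of WT and HET. The plasma cell markers Sdc1 and Prdm1 stayed at or under 12.5 and 7.68 TPM in every library. Others of the plasma cell list were high in every library, such as Jchain at 1082 to 1467 TPM and Mzb1 at 857 to 1094 TPM.

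The repertoire was broad. More than 3 counts were found for 98 and 97 of the 101 genes in WT, 96 and 91 in HET, and 97 to 100 in KO. Of all members, 88 passed this floor in every library and 101 in some library. The 15 genes with the highest mean share held 51.3% of Igkv TPM, and the 51 genes with the lowest mean share held 10.2%. If every gene were equal each would take 0.990%, a level that 33 genes exceeded on average.

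The total Igkv level was 21550 and 20492 TPM in WT, 14742 and 12690 TPM in HET, and 15928 to 31474 TPM in KO with a median of 22262. Both HET libraries lay below every WT and every KO library, while both WT libraries lay inside the KO range. Mean totals were 21021 ± 748 TPM in WT (SD, n = 2), 13716 ± 1450 TPM in HET (SD, n = 2) and 22053 ± 5563 TPM in KO (SD, n = 6). KO replicate 6, with the lowest germinal center markers, had the highest total. Its Igkv transcripts also had the longest median effective length, the length over which Salmon lets fragments start, at 156 bases against 135 to 151 bases in the other libraries. The part of these in the totals was not tested.

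Igkc, the constant gene that all kappa transcripts share, was at 19453 and 18307 TPM in WT, 14485 and 12446 TPM in HET, and 15273 to 27454 TPM in KO with a median of 19856. The order followed that of the variable genes, with HET lowest. The ratio of Igkv to Igkc was 1.11 and 1.12 in WT, 1.02 in both HET libraries, and 1.04 to 1.18 in KO with a median of 1.11. The lambda constant genes Iglc1, Iglc2 and Iglc3 together were at 14835 and 16070 TPM in WT, 11006 and 13721 TPM in HET, and 11016 to 17712 TPM in KO. The ratio of Igkc to these lambda genes was 1.31 and 1.14 in WT, 1.32 and 0.907 in HET, and 0.876 to 2.13 in KO with a median of 1.31. The genotypes overlapped in this ratio, and KO replicate 6, with the most kappa, had the highest value. The 2 Iglv genes in the files, Iglv1 and Iglv2, summed to 5839.5 TPM in that library and to 7797 to 14304 TPM in the others.

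**Figure D1:**
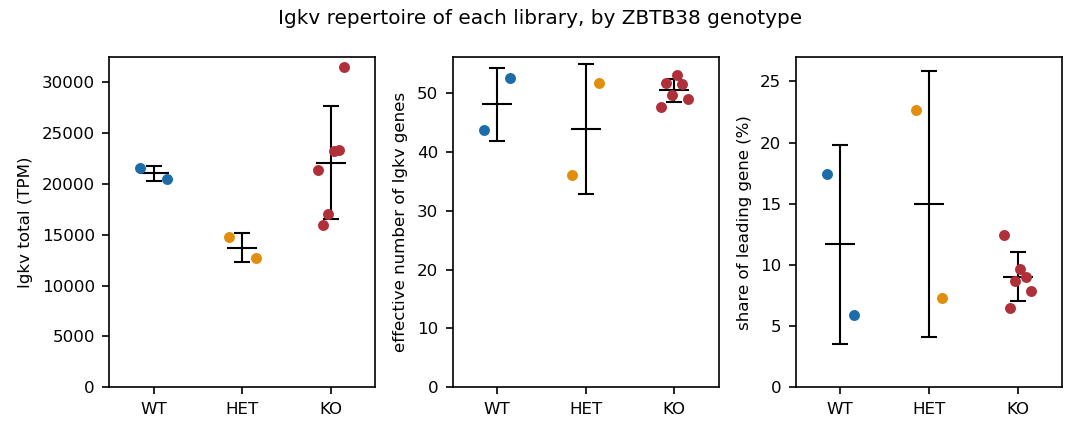
Points are libraries in each ZBTB38 genotype, with the mean and SD as lines, for the Igkv total in TPM, the effective number of Igkv genes and the share of the leading gene in percent. Both HET totals, 14742 and 12690 TPM, lie below all others, and in the other panels 1 WT and 1 HET library lie outside the KO range on the less even side.

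Evenness was described by the effective number, the exponential of the Shannon entropy, which is the number of equally used genes that would give the same entropy. It was 43.6 and 52.4 in WT, 36.0 and 51.7 in HET, and 47.6 to 53.0 in KO with a median of 50.5. In each control genotype 1 library lay below every KO library and the other lay inside the KO range. Evenness, the entropy divided by its maximum over 101 genes, was 0.818 and 0.858 in WT, 0.777 and 0.855 in HET, and 0.837 to 0.860 in KO. The KO mean of the effective number was 50.4 ± 2.01 (SD, n = 6), 2.38 above the WT mean of 48.0 ± 6.24 (SD, n = 2). This difference was smaller than the pooled SD of 3.14. It was -2.04 without WT replicate 1 and 6.79 without WT replicate 2, so its sign rested on 1 library. The difference from WT and HET together was 4.45, with a pooled SD of 4.99, and it was 1.15 without HET replicate 1.

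The low values went with a single gene in each library. In WT replicate 1, Igkv17-127 held 17.5% of Igkv TPM and the next gene 4.51%. In HET replicate 1, Igkv14-111 held 22.7% and the next gene 5.05%. With the leading gene of each library left out, an alternative chosen after seeing the data, the effective number was 55.3 in WT replicate 1, 51.6 in HET replicate 1, 53.0 and 53.2 in the other control libraries, and 50.6 to 57.0 in KO. The genotypes overlapped, as they had with all genes, and every control library then lay inside the KO range. Leaving out the leading gene raises most the libraries that it dominates, so this outcome was partly built in.

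Igkv14-111 led 6 of the 10 libraries and had the highest mean share, 8.18%. Its share was 4.51% and 3.31% in WT, 22.7% and 7.30% in HET, and 3.39% to 12.5% in KO with a median of 7.59%. HET replicate 1 was far above the other libraries, and both WT libraries were low, although WT and KO overlapped. The edgeR log2 fold change of WT over KO was -1.08 ± 0.51 (SE, adjusted p = 0.999).

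Igkv17-127 led WT replicate 1 and KO replicate 4. Its share was 17.5% and 3.51% in WT, 2.25% and 3.21% in HET, and 1.09% to 9.64% in KO with a median of 2.30%. It had a coefficient of variation of 108% over the 10 libraries, the highest among the 15 leading genes, where the median was 42.7% and the lowest, of Igkv10-96, was 24.5%. High shares were seen in 1 WT and 1 KO library, and the genotypes overlapped.

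Igkv6-15 led KO replicate 6 at 7.89%. Its share was 3.07% and 2.62% in WT, 4.78% and 7.05% in HET, and 3.69% to 7.89% in KO with a median of 5.99%. WT lay below every KO library and HET lay inside the KO range. The edgeR log2 fold change of WT over KO was -1.39 ± 0.52 (SE), with an unadjusted p of 0.0213 and an adjusted p of 0.999.

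Igkv3-4 led WT replicate 2 at 5.93%. Its share was 1.05% in WT replicate 1, 0.744% and 0.977% in HET, and 1.204% to 2.44% in KO with a median of 2.17%. A single WT library was high, and the other 3 control libraries lay below every KO library. A share above 5% in some library was found for 7 genes, which were Igkv14-111, Igkv6-15, Igkv17-127, Igkv6-23, Igkv19-93, Igkv8-30 and Igkv3-4. Only Igkv14-111 and Igkv17-127 passed 10% in any of the 10 libraries.

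**Figure D2:**
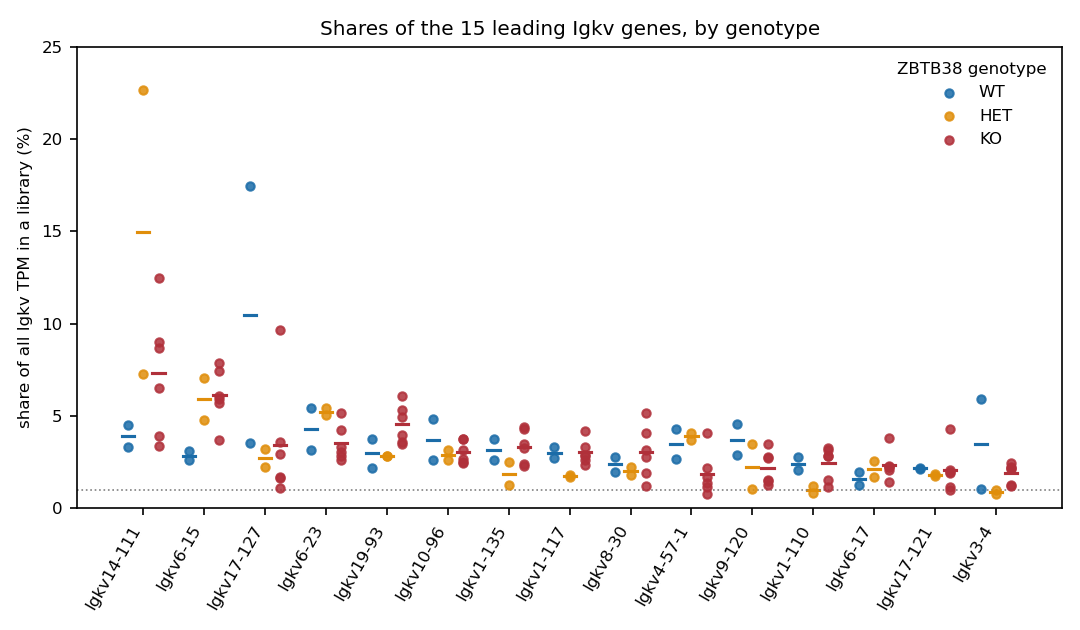
Each point is the share of all Igkv TPM in 1 library, in percent, for the 15 genes with the highest mean share, and short lines are genotype means. The dotted line marks the 0.990% that each gene would take if all were equal, and the highest points are Igkv14-111 at 22.7% in 1 HET library and Igkv17-127 at 17.5% in 1 WT library.

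Igkv6-23 and Igkv19-93 came next after Igkv17-127 in mean share. The share of Igkv6-23 was 3.17% and 5.41% in WT, 5.05% and 5.40% in HET, and 2.58% to 5.18% in KO with a median of 3.19%. Igkv19-93 was at 3.76% and 2.19% in WT, 2.81% in both HET libraries, and 3.50% to 6.05% in KO with a median of 4.46%. For Igkv19-93 both HET libraries and 1 WT library lay below every KO library, and for Igkv6-23 the groups overlapped. The most even of the 15 was Igkv10-96, at 2.58% and 4.82% in WT, 2.59% and 3.13% in HET, and 2.43% to 3.76% in KO. Over libraries, 35 genes ranked among the leading 15 of at least 1 library and 5 genes did so in all 10.

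By family, the number before the hyphen, 20 families were present, 7 of them with 1 gene. The 9 genes of Igkv6 together held the highest mean share, 16.4% ± 3.09 (SD, n = 10). The 26 genes of Igkv4, the family with the most members, held 11.9% ± 1.78 (SD, n = 10). The share of Igkv1, with 10 genes, was 9.30% and 9.27% in WT, 5.98% and 5.51% in HET, and 7.70% to 10.7% in KO. Both HET libraries lay below all others in this share, which was picked from the 20 families after its values were seen and was not tested. The share of Igkv17, with 2 genes, was 19.6% and 5.66% in WT, 3.98% and 5.06% in HET, and 2.24% to 13.9% in KO. Libraries that were high in this family were those led by Igkv17-127.

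Libraries were compared by the Bray-Curtis distance between their shares, which is 0 for identical repertoires and 1 for repertoires with no gene in common. It was 0.279 between the WT libraries, 0.272 between the HET libraries, and 0.190 to 0.342 between KO libraries with a median of 0.250. Distances between WT and KO libraries were 0.194 to 0.349 with a median of 0.277, and those between HET and KO libraries were 0.216 to 0.364 with a median of 0.269. Those between WT and HET libraries were 0.259 to 0.358 with a median of 0.315, above the distances within WT, within HET and the KO median. The ranges between genotypes overlapped that within KO.

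The annotation placed 100 of the 101 genes, all on chromosome 6 of GRCm38 between positions 67555497 and 70704177, a span of 3.15 Mb that ends before the Igkj segments. Joining deletes or inverts the DNA between the gene and Igkj, depending on the strand of the gene. The 38 genes on the plus strand held 39.2% to 52.3% of Igkv TPM over the libraries, and the 62 genes on the minus strand held 47.6% to 60.7%. The 25 genes farthest from Igkj held a summed mean share of 32.5%, the next groups of 25 held 16.6% and 21.0%, and the 25 nearest held 29.8%. The median gene of these groups, from the far end, held 0.557%, 0.280%, 0.474% and 0.930%. The sum of the far group included Igkv14-111 at 8.18% and Igkv17-127 at 4.69%. The far group was highest in WT replicate 1 at 42.3% and in HET replicate 1 at 38.5%, the libraries led by Igkv17-127 and Igkv14-111 with high shares, which both lie in it.

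**Figure D3:**
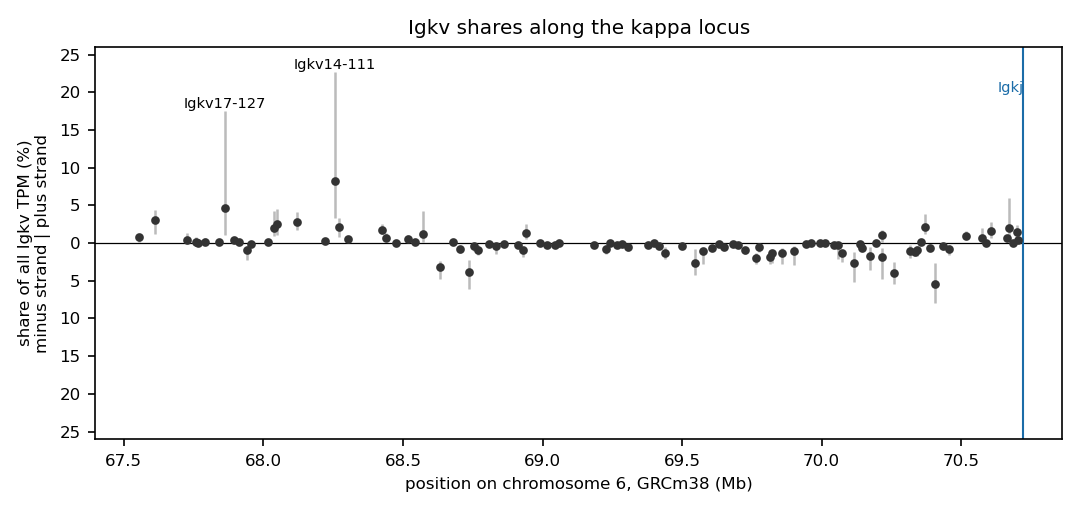
Points are mean shares of Igkv TPM over 10 libraries in percent, and grey lines run from the lowest to the highest library, along chromosome 6, with plus strand genes above and minus strand genes below the axis. Igkv17-127 and Igkv14-111, with the highest single shares of 17.5% and 22.7%, lie far from the Igkj segments.

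Many members are close copies, which limits how well reads can be assigned. Of the 31-base words of an Igkv gene, a median of 42.6% also occurred in another Igkv gene, and 39 genes shared more than 50% of theirs. The 2 Igkv17 genes differed at 9 of 353 coding bases, an identity of 97.5%, and 47.1% of the words of Igkv17-127 were in Igkv17-121. The share of Igkv17-121 was 2.19% and 2.14% in WT, 1.72% and 1.85% in HET, and 0.977% to 4.31% in KO, where KO replicate 4 was highest for both genes. Levels of these 2 genes are therefore uncertain individually. Igkv14-111, in contrast, shared 5.92% of its words with other Igkv genes and 2.66% with genes outside Igkv, and Igkv19-93 shared 0 with either. Words that also occurred outside Igkv were found in 9 members.

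The germline 3' ends of the leading genes are shown because they hold the germline part of the loop that the joining completes. Each is the last 75 bases of the coding sequence of the gene, 5' to 3' on its own strand, from GENCODE vM21 on GRCm38. Capitals run from the last in-frame codon for cysteine to the end. After that cysteine, this stretch holds the germline start of the third complementarity-determining region. Igkv14-111 lies at chr6:68256389-68256869 on the plus strand, Igkv17-127 at chr6:67861153-67861659 on the plus strand, Igkv17-121 at chr6:68036812-68037318 on the plus strand, Igkv6-15 at chr6:70406469-70406992 on the minus strand and Igkv3-4 at chr6:70671788-70672377 on the plus strand.
Igkv14-111: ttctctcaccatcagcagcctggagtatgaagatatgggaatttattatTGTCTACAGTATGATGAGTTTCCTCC
Igkv17-127: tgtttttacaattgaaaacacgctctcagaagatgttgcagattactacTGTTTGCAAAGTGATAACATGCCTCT
Igkv17-121: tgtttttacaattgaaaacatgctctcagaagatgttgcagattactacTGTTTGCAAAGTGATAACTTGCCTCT
Igkv6-15: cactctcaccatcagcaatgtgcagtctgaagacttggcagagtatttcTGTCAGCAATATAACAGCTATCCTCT
Igkv3-4: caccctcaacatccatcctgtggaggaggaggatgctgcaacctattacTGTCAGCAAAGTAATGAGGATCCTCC

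WT was compared with KO to ask whether loss of ZBTB38 went with a change in any Igkv gene. Of 99 members that passed the filter on low counts, 0 were called by edgeR at an adjusted p of 0.1, where 0.00704% of all 14203 genes tested were called. DESeq2 called 0 members and 0.0422% of all genes, and limma on log2(TPM + 1) called 0 members and 0% of all genes. At an unadjusted p of 0.05, edgeR passed 4 members, 4.04% of those tested against 2.19% of all genes. All 4 were lower in WT, and they were Igkv4-91, Igkv6-15, Igkv10-94 and Igkv9-124. Limma on log2(TPM + 1) passed 7, of which 3 were higher and 4 lower in WT, so the direction was not the same for all members on that scale. By edgeR without WT replicate 2, 3 members passed, of which 2 were higher and 1 was lower in WT, so the direction also rested on that library. The edgeR number was 8 without KO replicate 2 and 7 without KO replicate 4, where 2.48% and 3.89% of all genes passed. The median log2 fold change of members was -0.35 against -0.01 for all genes, and on log2(TPM + 1) it was -0.04 against 0.11, so that the members' median was near 0 on that scale. Without KO replicate 6 the edgeR median was -0.14.

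Every KO library lay above both WT libraries, in CPM after TMM scaling, for 4 members, 4.04% against 2.68% of all genes. Every KO library lay below both for 0 members, against 3.91% of all genes. The first number was 19 without WT replicate 1, 12 without WT replicate 2 and 7 without KO replicate 2, where 10.5%, 8.20% and 3.70% of all genes did the same. The second was 6 and 7 without WT replicate 1 and 2, where 12.4% and 11.2% of all genes did so, and 1, 3 and 2 without KO replicates 3, 5 and 6, where 4.56%, 5.53% and 5.40% did.

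With WT and HET as 1 control group against KO, edgeR called 0 of 96 members and 0.00749% of 13347 genes. DESeq2 called 1 member, Igkv4-91, and 0.135% of all genes, and limma on log2(TPM + 1) called 0 members and 0% of all genes. At an unadjusted p of 0.05, edgeR passed 18 members, 18.8% against 6.30% of all genes, all lower in the controls. Limma on log2(TPM + 1) passed 15, of which 14 were lower and 1 was higher in the controls. The edgeR number was 9 without HET replicate 1 and 8 without HET replicate 2, where the share of all genes also fell, to 3.59% and 3.28%. The median log2 fold change of members was -0.55 against -0.02 for all genes, and 81 members were lower in the controls.

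Igkv4-91 had the smallest p of the members in this comparison. Its level was 88.2 and 110 TPM in WT, 51.5 and 146 TPM in HET, and 85.5 to 359 TPM in KO with a median of 249 TPM. KO replicate 6 was as low as the controls, and the other 5 KO libraries were above all 4 controls. The edgeR log2 fold change of controls over KO was -1.43 ± 0.34 (SE, adjusted p = 0.744). Every KO library lay above all 4 controls for 1 member, Igkv10-94, 1.04% of members against 0.524% of all genes, and below all 4 for 0 members against 0.989% of all genes. The first number was 7 without WT replicate 1 and 4 without WT replicate 2, where 1.13% and 1.60% of all genes did the same. It was 3 without HET replicate 2 or KO replicate 2, with 0.907% and 0.937% of all genes, and 2 without HET replicate 1 or KO replicate 1, 4 or 6, with 1.06%, 0.719%, 1.29% and 0.854%.

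HET and KO both carry Vav-Cre, and this comparison held the widest difference in level. EdgeR called 0 of 100 members and 0.00697% of 14354 genes, which was 1 gene, Hnrnpll, named after its value was seen. DESeq2 called 20 members, all lower in HET, and 3.19% of all genes. Limma called 0 members and 0.00697% of all genes on log2(TPM + 1), and 2 members, Igkv1-99 and Igkv2-137, and 0.0418% of all genes on log2(TPM + 0.1). Without KO replicate 6, edgeR called 1 member, Igkv2-137, and 0.0211% of all genes. At an unadjusted p of 0.05, edgeR passed 34 members, 34% against 10.2% of all genes, all lower in HET. This number was 15 without HET replicate 1, of which 14 were lower in HET, where 4.34% of all genes passed.

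The median log2 fold change of HET over KO was -1.13 for members against -0.07 for all genes, with 88 members lower in HET. On log2(TPM + 1) it was -0.76 against 0.04, with 84 members lower in HET. Every KO library lay above both HET libraries for 25 members, 25% against 5.77% of all genes, and below both for 0 members against 8.12% of all genes. The first number was 39 without HET replicate 1 and 43 without HET replicate 2, where 12.9% and 13.3% of all genes did the same, and the second was 2 and 1, where 15.6% and 15.3% did. These comparisons share the KO libraries.

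Igkv2-137 had the smallest p of the members in HET against KO, and was named after its value was seen. Of its 31-base words, 25.9% also occurred in genes outside Igkv, so its level is uncertain. Its level was 149 and 202 TPM in WT, 27.2 and 49.9 TPM in HET, and 102 to 271.5 TPM in KO. Both HET libraries lay below all others. The edgeR log2 fold change of HET over KO was -2.45 ± 0.39 (SE, adjusted p = 0.157). Igkv1-117, the member with the eighth highest mean share, was at 713 and 551 TPM in WT, 251 and 230 TPM in HET, and 398 to 971 TPM in KO, again with HET below all others. Igkv14-111 was at 3344 and 926 TPM in HET and 785 to 2660 TPM in KO with a median of 1358, so that 1 HET library was above every KO library and the other below the KO median, with a log2 fold change of 0.25 ± 0.54 (SE, adjusted p = 0.895).

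Markers of other cell types were measured beside the Igkv totals. The 10 naive B cell markers summed to 914 and 1009 TPM in WT, 584 and 614 TPM in HET, and 505 to 1083 TPM in KO, where KO replicate 6 was highest, and the most abundant was Fcer2a. The 10 T cell markers summed to 361 and 385 TPM in WT, 159 and 170 TPM in HET, and 160 to 273 TPM in KO, and the most abundant was Lck. In HET against KO, 6 naive B cell and 5 T cell markers had an unadjusted p under 0.05 by edgeR, with list medians of -1.17 and -1.21, and 0 of either list were called. In WT against KO, 5 T cell markers passed that level with a list median of 1.08, and 1 naive B cell marker did with a median of 0.14. The sums of both HET libraries were below those of both WT libraries in these 2 lists and overlapped KO. Most of the T cell sum in HET was Lck, at 122 and 120 TPM there. Lck was at 116 and 124 TPM in WT and 77.0 to 122 TPM in KO. The overlap of the T cell sums with KO thus depended on a gene that was similar in all genotypes. Single genes did not all overlap, since both HET libraries were below every KO library in TPM for 4 of the 10 naive B cell markers (Ccr7, Gpr183, Ighd and Klf2) and for 3 of the 10 T cell markers (Trac, Trbc1 and Trbc2). Trbc2, a T cell receptor constant gene, was at 69.0 and 94.0 TPM in WT, 9.71 and 12.5 TPM in HET, and 21.4 to 59.8 TPM in KO. For the other markers HET was not below every KO library, and Cr2 and Il4ra had log2 fold changes of 0.32 and 0.30 for HET over KO. The part of these cells in the Igkv result was not tested.

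The 10 plasma cell markers, led by Jchain, summed to 2918 and 2660 TPM in WT, 2448 and 2304 TPM in HET, and 2384 to 3046 TPM in KO, with 0 called in any of the 3 comparisons. Both HET libraries were below both WT libraries and overlapped KO. The 8 myeloid markers, led by Lyz2, summed to 527 and 448 TPM in WT, 70.7 and 81.5 TPM in HET, and 43.2 to 792 TPM in KO. The 6 erythroid markers, led by Hbb-bt, summed to 133 and 187 TPM in WT, 114 and 104 TPM in HET, and 176 to 257 TPM in KO. At an unadjusted p under 0.05 in HET against KO, edgeR passed 1 plasma cell, 2 myeloid and 3 erythroid markers, and 0 of these lists were called. The plasma cell marker was Sdc1, with a log2 fold change of HET over KO of -2.35 ± 0.73 (SE, adjusted p = 0.370). Sdc1 was at 7.22 and 7.70 TPM in WT, 2.33 and 0.786 TPM in HET, and 2.24 to 12.5 TPM in KO. Both HET libraries were below both WT libraries in all 3 lists, overlapped KO in the myeloid list, with a list median of -1.23 in HET against KO, and were below every KO library in the erythroid list, with a list median of -3.19. In WT plus HET against KO, edgeR passed 3 of the 4 erythroid markers tested at that level, with a list median of -1.49. In that list Hba-a1, Hba-a2 and Hbb-bs, globin genes, also lay below every KO library in HET, as the Igkv total did. So did 1 of the 10 plasma cell markers, Mzb1, and 1 of the 8 myeloid markers, Cd68. Mzb1 was at 919 and 857 TPM in HET and 932 to 1094 TPM in KO. Cd68 was at 15.3 and 11.8 TPM in HET and 19.0 to 54.1 TPM in KO. The part of all these genes in the Igkv values was not tested.

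Regulators of the locus were measured beside the Igkv level. The 18 genes of the kappa transcription list, such as Pou2af1, a coactivator at octamer sites, and Pax5, a B cell identity factor, summed to 2736 and 2710 TPM in WT, 2990 and 3171 TPM in HET, and 2070 to 2902 TPM in KO. HET had the highest sums, to which Pou2af1 gave 1216 and 1248 TPM in HET, 936 and 823 TPM in WT and 688 to 983 TPM in KO. In HET against KO, Pou2af1 had a log2 fold change of 0.42 ± 0.14 (SE) and Tcf4, an E protein, one of -0.43 ± 0.14 (SE), each with an adjusted p of 0.370, and their part in the Igkv result was not tested. EdgeR called 0 of the 18 in each comparison, with list medians of 0.02 for WT, 0.08 for WT and HET together, and 0.08 for HET, each over KO, and 0, 2 and 2 genes at an unadjusted p under 0.05. Rag1 and Rag2, the recombinase that joins the segments, were low. Rag1 was at or under 1.55 TPM in every library, and Rag2 was at 0.329 and 0.624 TPM in WT, 0.0535 and 0.793 TPM in HET, and 1.22 to 2.07 TPM in KO, with every KO library above the others. Of the 6 recombination and surrogate light chain genes, led by Vpreb3, edgeR called 0 in each comparison and passed 1, Rag2, at an unadjusted p under 0.05, with list medians of -1.10, -0.67 and -0.52. Of the 11 other light chain segments in the files, led by Igkc, edgeR called 0 and passed 0, 0 and 2 in the 3 comparisons, with list medians of 0.02, -0.16 and -0.37.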

How the data were processed

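Per the labels and methods, the authors quantified RNA-seq reads against GENCODE vM17 mouse transcripts with Salmon 0.9.1 and used DESeq2 2.11.40.6, as the submitters' processing notes name them. The deposited files give estimated counts and TPM per transcript, which were summed per gene. Counts were rounded and tested with edgeR 4.0.16 (quasi-likelihood, TMM scaling, filterByExpr, Benjamini-Hochberg adjustment over all genes, threshold 0.1) in R 4.3.3. WT against KO used their own libraries, WT plus HET against KO used all 10, and HET against KO used all 10 with a term per genotype. DESeq2 1.42.0 and limma 3.58.1 were alternatives, with others in the closing section. The fit was tested on simulated data. Scores over the members have no p-value. Named genes were the 15 with the highest mean share, leading genes, the 5 with the smallest p in each of WT against KO and WT plus HET against KO, called genes, Zbtb38 and list genes. Members and lists were chosen with earlier results of these data known. Promoters and proteins of Igkv genes were not analysed here. Some genes of the marker lists are not reported here by name.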

Additional observations from a re-analysis of the deposited data

Results flagged for a closer look

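A value was singled out when the highest or lowest library of a group lay far from its nearest neighbour relative to the range of the group (Dixon's test at 95%). This was asked of 76 sets of values, in the 6 KO and in the 4 control libraries, and 10 stood out, while chance alone gives about 1 in 20.

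In KO replicate 4, the share of Igkv17-127 was 9.64%, with 3.56% in the nearest KO library, and that of its close copy Igkv17-121 was 4.31%, with 2.07% in the nearest. The myeloid markers of that library summed to 792 TPM, with 215 TPM in the nearest. In KO replicate 6, Igkv6-17 was at 3.83%, above 2.26% in the nearest, and Igkv4-91 was at 0.272%, below 1.13%. KO replicate 2 held Zbtb38 at 46.1 TPM, above 23.7 TPM, and KO replicate 5 had a sum of 553 TPM for the recombination and surrogate light chain genes, below 760.4 TPM.

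Among WT and HET libraries, WT replicate 1 stood apart for Igkv17-127 at 17.5%, above 3.51% in the nearest, and for Igkv6-23 at 3.17%, below 5.05%. WT replicate 2 stood apart for Igkv3-4 at 5.93%, above 1.05%.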

How the results depend on the processing

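Of 156 alternative values, 144 lay within 1 SD of the main value or, for counts, within 1.5 times of it. The number of called members in HET against KO was 20 by DESeq2 and 2 by limma on log2(TPM + 0.1), and in WT plus HET against KO it was 1 by DESeq2, Igkv4-91 (adjusted p = 0.0301). The cause was not tested. Over leave-one-out fits it was 0 in WT against KO and in WT plus HET against KO, and 0 to 1 in HET against KO. With a replicate block, a term per replicate number, it was 0 in all 3 comparisons. WT and HET have only replicates 1 and 2, so each KO library with a higher number had a term to itself. With the block, the genotype difference therefore rested on KO replicates 1 and 2 alone. The blocked values below thus use fewer KO libraries than the main test. At an unadjusted p of 0.05, the replicate block gave 22, 14 and 32 members and 7.67%, 8.27% and 9.73% of all genes, where the test without it gave 4, 18 and 34 members and 2.19%, 6.30% and 10.2%. Of the 22 in WT against KO, 11 were higher and 11 lower in WT, and the members' median was 0.06. Of the 14 in WT plus HET against KO, 3 were higher and 11 lower in the controls. The members' median was -0.18 where it was -0.55 without the replicate block. Of the 32 in HET against KO, 2 were higher and 30 lower in HET. The members' median was -0.72 where it was -1.13 without the replicate block. In WT against KO at that unadjusted p of 0.05, DESeq2 gave 7, all lower in WT, with 2.99% of all genes. Limma on log2(TPM + 1) gave 7 there, with 3.08% of all genes. In WT plus HET against KO a fit with a term per genotype gave 31, with 1005 of 14354 genes in all. Sample titles share only a number across genotypes. Correlations of deviations from the group mean between same-numbered libraries ran from -0.00798 to 0.127. With 2 libraries in WT and in HET, the deviations within each of these groups mirror each other. These correlations therefore cannot decide whether the numbers mark pairs.

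With 1 library left out, KO minus WT ran from -0.08 to 0.12 for the log2 Igkv total, -2.04 to 6.79 for the effective number, -0.00872 to 0.0312 for evenness and -8.43 to 3.10 percentage points for the leading share. KO minus WT plus HET ran from 0.20 to 0.46, 1.15 to 6.62, 0.00561 to 0.0327 and -6.78 to -1.20. With the leading gene of each library left out, chosen after seeing the data, evenness differed by -0.00298 between KO and WT.

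The mean number of genes detected was 93.5 at 10 counts or more, against 96.9 above 3 counts and 95.2 at a common depth of 37319 Igkv counts. Depth thus limits the count of rare genes by a few. There were 2 WT and 2 HET mice.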
